A study of Mus musculus with 8 samples.

Results

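The genes described here encode the proteins of the cytosolic ribosome in mouse bone marrow adipocytes (BMAd). They were taken by name from the deposited expression table: every symbol of the form Rpl or Rps followed by a number, with the endings a, x, y, l, l1 or al where present, together with Rplp0, Rplp1, Rplp2, Rpsa and Rps27rt. Kinases of the Rps6k family and names ending in -ps were left out. Of 54134 genes in the table, 88 had such a name, and 84 of them, 51 of the large and 33 of the small subunit, reached 1 TPM (reads per length of the gene, set to 1 common total for each library) in at least 2 libraries. These 84 were among 14985 genes tested. The names stand for annotated gene loci: 80 of the 84 are annotated as protein-coding, and Rpl32l, Rps12l1, Rpl6l and Rps4l are annotated as pseudogenes. Rpl24, Rpl3l, Rps13 and Rpl10l stayed under the filter, and Rps12l1 reached 1 TPM in GC+GW9662 libraries only. The naming rule does not reach Fau, Rack1 and Rps3a1, which encode further ribosomal proteins and are given separately.

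The cells came from wild-type mouse bone marrow stem cells that had been put through 14 days of adipogenic differentiation in culture, which the controls shared. In the labels, Control (n = 2) received differentiation alone. GC (n = 3) was exposed to dexamethasone (DEX), a glucocorticoid drug, at 1e-06 M over 24 hours. GC+GW9662 (n = 3) was exposed for the same time to that DEX dose plus GW9662, which blocks PPARγ, the master transcription factor of fat cells. The dose of GW9662, the number of animals and whether libraries of 1 group stem from different cultures are not given in the sources used here, so p-values measure the spread between these libraries, which may be technical. No group received GW9662 alone.

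A ribosome is built from a small subunit, which reads the mRNA, and a large subunit, which joins amino acids, and nearly every ribosomal protein is present in a single copy per particle. Their genes are among the most strongly expressed in growing cells, and their mRNAs begin with a short run of pyrimidines, the 5′ terminal oligopyrimidine (TOP) tract, through which mTOR signalling controls their translation. Mammalian genomes also hold many processed pseudogenes that are near-copies of these mRNAs, so that a short read can match several places.

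Libraries held an estimated 17434687 to 26522838 assigned reads, recovered from the steps between TPM values. Depth went with the groups. Control libraries held 25223595 and 26522838 reads, GC libraries 17685015, 25620107 and 24946344, and GC+GW9662 libraries 17479747, 17434687 and 18469660. The part of depth in the results below was not tested. The libraries carry their labels with a reservation: Fkbp5 and Tsc22d3, genes that glucocorticoids are known to induce, were lowest on average in the libraries labelled GC (Fkbp5 463 and 429 TPM in Control libraries, 32.5, 80.3 and 62.8 in GC libraries and 104, 78.8 and 104 in GC+GW9662 libraries). Directions are therefore given as the libraries are labelled. Adipocyte markers (10 of 12 tested, Lep at 0 in all libraries) summed to 2459 to 2523 TPM in Control, 297 to 336 in GC and 1719 to 1769 in GC+GW9662. Macrophage markers (12 of 12 tested) summed to 31460 to 32380, 9946 to 10440 and 24860 to 28900 TPM in the same order. Single markers did not all follow these sums. Adipoq averaged 170, 3.71 and 251 TPM, Fabp4 301, 32.1 and 706, and Pparg 7.57, 2.94 and 17.6, all highest in GC+GW9662. Plin1, at 36.1, 0.139 and 22.3, was highest in Control. Of the macrophage list Cd68 averaged 979, 2651 and 594, highest in GC, and Lyz2 10680, 6136 and 6408. Markers of marrow stroma and osteoblasts (8 of 8 tested) summed to 869 to 914, 29.4 to 52.2 and 251 to 281 TPM, those of smooth muscle type (4 of 4) to 9506 to 9654, 238 to 352 and 8827 to 8890, and those of neutrophils (2 of 6) to at most 26.7, to 249.2 to 550.1 and to 72.4 to 83.9. Lymphocyte markers (3 of 6, 2 at 0 in all libraries) were highest in GC+GW9662, as the members were, with 5.44 to 7.11, 5.58 to 10.02 and 11.32 to 21.4 TPM. These lists moved with the groups, in a bulk sample fewer cells of a type and less RNA per cell cannot be told apart, and the part of cell makeup in the results below was not tested. Fth1, the ferritin heavy chain, held 13.3% to 13.5% of all TPM in GC and 3.69% to 3.91% elsewhere, and TPM are shares of a fixed total.

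The coding sequence is shown first for the Rps27 family, because over that sequence 1 of the 3 genes can be told apart by its reads and the other two cannot. Rps27 (chr3:90212522-90213651), Rps27rt (chr9:114982366-114982739) and Rps27l (chr9:66946086-66949516; coordinates as deposited, which are those of GRCm38) each have a coding sequence of 252 bases without the stop codon. The first 90 coding bases of the GENCODE M21 transcripts follow, with capitals at each base that differs from Rps27.
Rps27: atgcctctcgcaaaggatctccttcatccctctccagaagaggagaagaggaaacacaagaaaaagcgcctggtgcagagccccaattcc
Rps27rt: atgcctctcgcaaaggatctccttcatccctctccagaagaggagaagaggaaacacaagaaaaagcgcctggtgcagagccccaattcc
Rps27l: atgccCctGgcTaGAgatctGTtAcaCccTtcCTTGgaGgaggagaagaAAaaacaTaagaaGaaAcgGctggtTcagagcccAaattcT
Rps27 and Rps27rt had 0 differences over the whole coding sequence, whereas Rps27l differed at 60 of 252 bases, 24 of them in the stretch shown. Of all stretches of 50 bases in the Rps27 mRNA, 98.65% occur also in Rps27rt. Rps27 and Rps27rt, which no read from the coding sequence can separate, held 71 to 242 and 10 to 77 reads per library, while Rps27l held 2358 to 10845.
A second pair is shown as a contrast, because both copies can be told apart by sequence. Rpl39 (chrX:37082520-37085402) lines the tunnel through which the new protein leaves the ribosome, and Rpl39l (chr16:10170226-10174911) is its copy best known from testis. Capitals mark the bases of Rpl39l that differ from Rpl39.
Rpl39: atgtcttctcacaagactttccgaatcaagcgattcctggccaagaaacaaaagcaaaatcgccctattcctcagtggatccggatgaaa
Rpl39l: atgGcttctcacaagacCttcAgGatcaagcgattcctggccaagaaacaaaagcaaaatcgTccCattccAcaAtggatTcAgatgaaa
Rpl39l differed from Rpl39 at 23 of 153 coding bases and shared no stretch of 50 bases with any other annotated gene.

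The start of the mRNA is shown for 6 genes described below, to set windows with a match to the pyrimidine motifs beside windows without one. The windows run from 40 bases before to 20 bases from the annotated start (RefSeq, GRCm38.p6), and capitals mark CTCTTT or CTTTCC on the gene's strand, 2 motifs that overlap in CTCTTTCC.
Rps6 (chr4:86857348-86857407, minus strand): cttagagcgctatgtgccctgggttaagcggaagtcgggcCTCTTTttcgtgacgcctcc
Rpl28 (chr7:4792925-4792984, plus strand): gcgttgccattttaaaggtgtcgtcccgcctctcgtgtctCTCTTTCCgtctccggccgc
Rpl4 (chr9:64173347-64173406, plus strand): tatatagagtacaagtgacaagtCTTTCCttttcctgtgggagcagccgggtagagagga
Rpl22l1 (chr3:28805468-28805527, plus strand): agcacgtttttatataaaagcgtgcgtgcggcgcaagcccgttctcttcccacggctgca
Rps27l (chr9:66946046-66946105, plus strand): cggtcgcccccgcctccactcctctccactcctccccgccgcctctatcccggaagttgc
Rpl7l1 (chr17:46782637-46782696, minus strand): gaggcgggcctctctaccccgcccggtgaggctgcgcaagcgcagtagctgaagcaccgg
RefSeq promoter sequences were at hand for 61 of the 84 tested genes. CTCTTT occurred on the gene's strand within 50 bases of the start in 19 of the 61 (31.1%), against 4.68% of 27025 genes of all kinds, and CTTTCC in 21 (34.4%) against 5.43%. At least 1 of both occurred in 32 of the 61 (52.5%) against 9.29%. CCGGAAG, a core recognised by ETS-type factors, searched on both strands over the 300 bases from 250 before to 50 after the start, occurred in 25 (41.0%) against 9.93%. The members with and without a tract match had close medians in GC+GW9662 against Control, 1.14 in 32 and 1.08 in 29 genes, and 27 of the genes passed as higher in each. These motif matches describe the letters only.

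Levels within the group spanned a 25010-fold range of mean TPM, from 13780 for Rplp1 to 0.551 for Rps12l1. Of the 84 tested genes 14 averaged at least 1000 TPM, 30 averaged 100 to 1000, 27 averaged 10 to 100 and 13 stayed under 10. The 4 highest were Rplp1, Rplp0, Rps14 and Rps15, and the 5 lowest Rpl21, Rps29, Rpl23a, Rpl6l and Rps12l1. Rps14, a protein of the small subunit platform, measured 1648 and 2457 TPM in Control libraries, 3143, 1530 and 2110 in GC libraries and 5760, 7422 and 6133 in GC+GW9662 libraries. In Rps14 every GC+GW9662 library lay above every other library, while Control and GC overlapped. At the low end Rps29, a zinc-binding protein of the small subunit head, was measured from 2 to 33 reads per library and Rpl23a, which sits at the tunnel exit, from 8 to 29.

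The listed level went down as sequence sharing went up. Across the 84 genes the share of 50-base stretches also found in another annotated gene had a median of 58.7%, with 33.5% in the genes of at least 1000 TPM and 76.4% in those under 10 TPM. Spearman's rho between mean level and shared percentage was -0.52 across the 84 genes, and -0.63 for stretches of 100 bases. This is a description across genes that share libraries and read placement, and how reads with several matches were counted is not given in the sources used here. Rps27, with 98.65% shared, averaged 17.7 TPM, and its distinguishable relative Rps27l averaged 895. Rplp1 went the other way, with 60.0% shared and the highest level. The 296 table rows with a ribosomal protein name ending in -ps number held 4997 to 15770 TPM per library, 0.131 to 0.153 of the sum of the members.

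**Figure D1:**
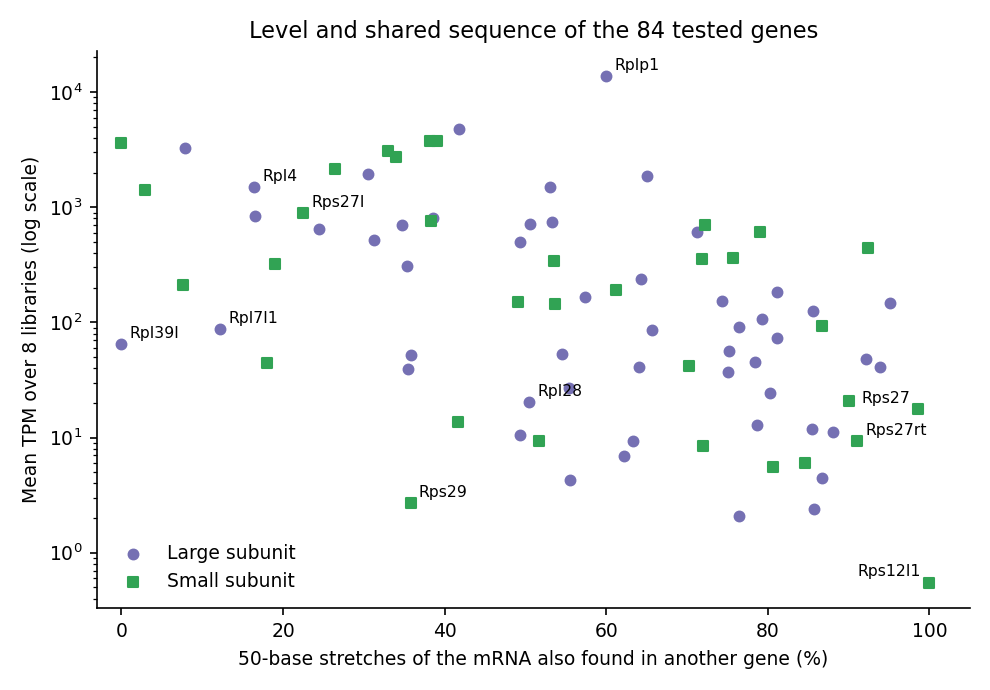
Mean TPM over 8 libraries (vertical log axis) against the percentage of 50-base stretches of the mRNA that occur also in another annotated gene (horizontal axis), 1 point per tested gene, with circles for the large and squares for the small subunit. Points with over 75% sharing lie below 1000 TPM, and Rplp1, the highest, shares 60.0%.

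The summed share of the group was highest in the GC+GW9662 libraries. The 88 names held 3.73% and 4.48% of all TPM in Control libraries, 6.20%, 3.81% and 4.52% in GC libraries, and 8.57%, 10.3% and 9.15% in GC+GW9662 libraries. The means were 4.10 ± 0.53 (SD, n = 2), 4.85 ± 1.22 (n = 3) and 9.34 ± 0.89 (n = 3). Each GC+GW9662 library lay above each of the other 5, whereas Control and GC overlapped. The same order held as a percentage of assigned reads, 1.62 and 1.93 for Control, 3.48, 1.87 and 2.32 for GC, and 4.95, 6.18 and 5.30 for GC+GW9662. Rplp1 alone held 18.0% to 23.9% of the members' sum. The large subunit sum over the small subunit sum was 1.44 ± 0.04 in Control (n = 2), 1.66 ± 0.06 in GC (n = 3) and 1.30 ± 0.03 in GC+GW9662 (n = 3). This ratio of sums differed by more than the SD, but Rplp1 is counted in the large subunit sum. By gene, the median difference in GC against Control was 0.19 for the large and 0.24 for the small subunit. The part of Rplp1 in the ratio was not tested. GC replicate 1 stood apart in its group, with 79 of the 84 genes above GC replicate 2 and 75 above GC replicate 3. It was also the GC library with the fewest assigned reads (17685015). Control replicate 2 exceeded Control replicate 1 in 64 of the 84.

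**Figure D2:**
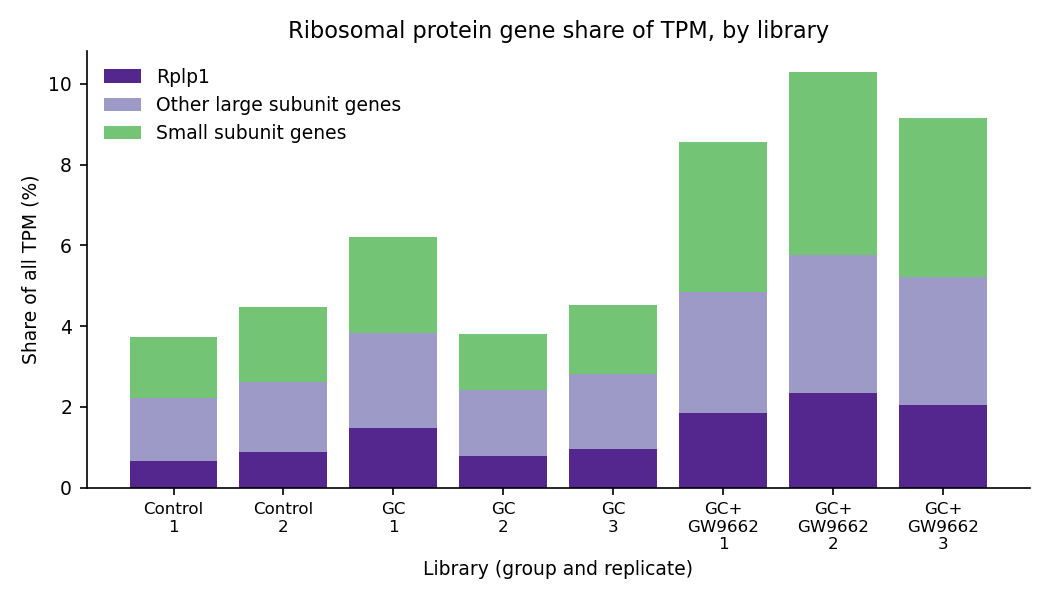
Share of all TPM (percent, vertical axis from 0) held by the ribosomal protein genes in each of the 8 libraries, stacked as Rplp1, the other large subunit genes and the small subunit genes. The 3 GC+GW9662 libraries reach 8.57% to 10.3%, above the 3.73% to 6.20% of the 5 Control and GC libraries.

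The comparison of GC+GW9662 with Control set cultures given both agents against untreated ones. Of the 84 genes 67 (79.8%) were higher, 1 was lower and 16 did not pass (limma on log2(TPM + 1), Benjamini-Hochberg adjusted p under 0.05 over all 14985 genes). Over all genes tested 14.1% were higher and 48.6% lower. The members had a median difference of 1.04 and all genes one of -0.49. By at least 2-fold on this scale 46 of the 84 rose, against 4.78% of all genes. The values of 76 members lay above and of 2 below Control with no overlap between libraries, against 21.6% and 57.3% of all genes. Among large subunit genes 40 of 51 rose and 1 fell, with a median of 0.98, and among small subunit genes 27 of 33 rose and 0 fell, with a median of 1.18.

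The stalk of the large subunit, where elongation factors dock, rose in all 4 genes in that comparison. Rplp1, one of the 2 small acidic stalk proteins, measured 6692 and 8896 TPM in Control libraries, 14800, 7847 and 9494 in GC libraries and 18490, 23500 and 20530 in GC+GW9662 libraries. Its GC+GW9662 libraries did not overlap the others, and the difference from Control was 1.43 (SE 0.26, limma adjusted p = 0.0032). Rplp2, its partner, rose by 1.18 (SE 0.27, limma adjusted p = 0.0062), a call that was lost without Control replicate 1 (1.03, adjusted p = 0.053). Rplp0, which anchors the stalk, rose by 1.08 (SE 0.15, limma adjusted p = 0.0018), and Rpl12, at the base of the stalk, by 0.90 (SE 0.18, limma adjusted p = 0.0041). Rpl12 stood at 6.76 and 5.65 TPM in Control and 12.5, 13.2 and 11.5 in GC+GW9662.

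Of the small subunit, Rps14 rose by 1.67 (SE 0.30, limma adjusted p = 0.0029) and Rps21 by 1.45 (SE 0.29, limma adjusted p = 0.0042). Rps16, whose tail reaches the tRNA in the decoding region, measured 5.19 and 7.85 TPM in Control libraries, 16.3, 7.52 and 9.08 in GC libraries and 17.3, 27.8 and 17.4 in GC+GW9662 libraries and differed by 1.52 (SE 0.35, limma adjusted p = 0.0064). The Rps16 call was lost without Control replicate 1 (1.27, adjusted p = 0.059). Rps15 rose by 1.20 (SE 0.20, limma adjusted p = 0.0026). The largest estimate in the group belonged to Rps27rt, which measured 2.52 and 2.35 TPM in Control libraries, 7.23, 7.73 and 4.09 in GC libraries and 19.9, 13.7 and 17.2 in GC+GW9662 libraries and differed by 2.37 (SE 0.28, limma adjusted p = 0.0012). Its reads from the coding sequence cannot be separated from those of Rps27, and 91.1% of its 50-base stretches occur in Rps27 (difference 1.15, adjusted p = 0.0066, and 0.99, adjusted p = 0.060 without Control replicate 1). In the large subunit Rpl34 rose by 1.45 (SE 0.25, limma adjusted p = 0.0026).

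Paralogous members were compared with their main genes in GC+GW9662 against Control. Rpl22 and its paralog Rpl22l1 rose by 1.15 (limma adjusted p = 0.0030) and 1.29 (limma adjusted p = 0.0054), and Rps27l by 1.33 (limma adjusted p = 0.0028). Rpl39 measured 477 and 588 TPM in Control libraries, 756, 424 and 541 in GC libraries and 1116, 1518 and 1277 in GC+GW9662 libraries and rose by 1.29 (limma adjusted p = 0.0033). Rpl39l measured 34.6 and 50.5 TPM in Control libraries, 66.9, 34.4 and 44.1 in GC libraries and 83.4, 114 and 92.8 in GC+GW9662 libraries and rose by 1.18 (limma adjusted p = 0.0081), a call lost without Control replicate 1 (0.91, adjusted p = 0.075). Both genes had their 3 highest values in the GC+GW9662 libraries. Rpl10, next to the peptidyl transferase centre, rose by 1.06 (limma adjusted p = 0.0035), Rpl7 by 0.84 (limma adjusted p = 0.0025) and Rpl36al by 1.27 (limma adjusted p = 0.0022). Rpl36a rose by 0.62 (limma adjusted p = 0.044), a call lost in 9 alternatives, among them either Control replicate left out (adjusted p = 0.11 and 0.19), GC replicate 3 (0.071) and GC+GW9662 replicate 1 (0.11) or 3 (0.12). Rps4x, the X-linked gene of a small subunit protein, rose by 0.51 (limma adjusted p = 0.025). This call was lost without either Control replicate (differences 0.53 and 0.49) and without GC+GW9662 replicate 1 (adjusted p = 0.072). It was also lost with the length trend removed (0.38, adjusted p = 0.056), with quantile normalization (0.33, adjusted p = 0.076) and with no filter (0.51, adjusted p = 0.051).

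Among the 16 genes that did not pass were Rpl5, Rpl11, Rpl3 and Rps27a. They shared 93.8%, 62.2%, 85.6% and 71.9% of their 50-base stretches with other genes, in that order. Their reads per library were 593 to 1222, 49 to 102, 1663 to 3559 and 53 to 128. Rpl5 and Rpl11, which carry the 5S rRNA into the large subunit and bind Mdm2 when free, differed from Control by 0.16 (adjusted p = 0.36) and 0.45 (adjusted p = 0.14). Rpl3, near the peptidyl transferase centre, differed by 0.29 (adjusted p = 0.10). Rps27a, made as a fusion with ubiquitin, differed by 0.60 (adjusted p = 0.13). All 4 passed as higher with median-ratio scaling, by 0.87, adjusted p = 0.0071 for Rpl5, 1.07, adjusted p = 0.0082 for Rpl11, 1.02, adjusted p = 0.0037 for Rpl3 and 1.24, adjusted p = 0.026 for Rps27a, and also with quantile normalization and on recovered reads. With the length trend removed Rpl5 (0.81, adjusted p = 0.0077), Rpl11 (0.71, adjusted p = 0.033) and Rpl3 (0.71, adjusted p = 0.0041) passed. Single omissions gave a call for Rpl11 without GC+GW9662 replicate 3 (0.67, adjusted p = 0.023), for Rpl3 without GC+GW9662 replicate 2 (0.41, adjusted p = 0.023) and for Rps27a without GC replicate 1 (0.60, adjusted p = 0.027). Rpl4, a large subunit protein that reaches into the exit tunnel, was the only member called lower. It measured 1817 and 1738 TPM in Control libraries, 1314, 1822 and 1689 in GC libraries and 1332, 943 and 1244 in GC+GW9662 libraries, from 15855 to 33946 reads per library. Every GC+GW9662 library except replicate 1 lay below all others, and replicate 1 lay above GC replicate 1. The difference of Rpl4 from Control was -0.61 (SE 0.18, limma adjusted p = 0.020). The Rpl4 call was lost without Control replicate 1 (-0.58, adjusted p = 0.10), without Control replicate 2 (-0.65, adjusted p = 0.072), with the bracketed replicate block (-0.59, adjusted p = 0.066) and on recovered reads (-0.10, adjusted p = 0.54), and its sign turned with median-ratio scaling (0.12, adjusted p = 0.54).

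**Figure D3:**
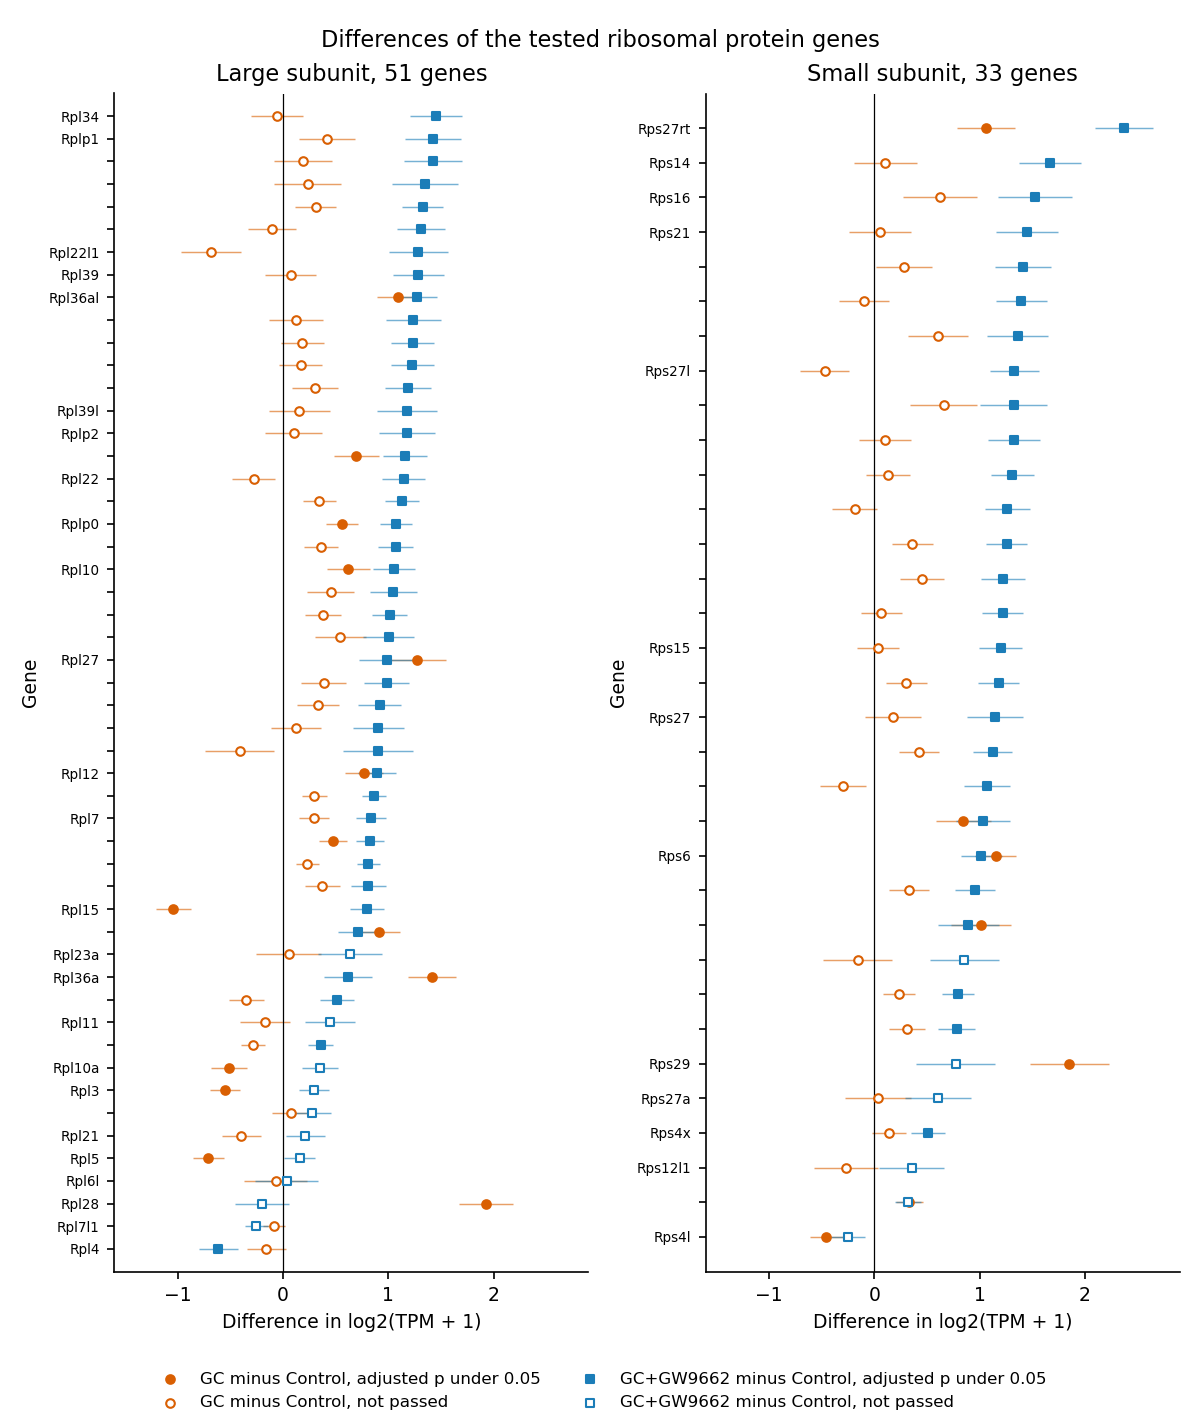
Difference in log2(TPM + 1) from Control of each tested gene in GC (circles) and GC+GW9662 (squares), with bars of 1 SE from limma, filled where the adjusted p was under 0.05, by subunit and ordered by the GC+GW9662 difference, with names at the genes described in the text. Most squares lie near 1 while most circles lie near 0, and Rpl28, Rps29 and Rpl36a show the circle far to the right of the square.

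GC+GW9662 against GC compared cultures with and without the inhibitor where DEX was present. Of the 84 genes 60 (71.4%) were higher, 4 were lower and 20 did not pass, against 28.3% higher and 33.5% lower over all genes. The median difference was 0.73 in the members and -0.11 over all genes. By at least 2-fold 29 members rose, against 16.8% of all genes. The values of 62 members lay above and of 4 below GC with no overlap, against 30.3% and 33.8% of all genes. In the large subunit 37 of 51 rose and 3 fell, and in the small subunit 23 of 33 rose and 1 fell. Each pair of the 3 comparisons shares 1 group of libraries, so they are not independent. Without GC replicate 1, 67 were higher and 5 lower, against 30.04% and 42.65% of all genes.

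The largest rise belonged to Rpl22l1, a paralog of Rpl22 that can take its place in the ribosome. It measured 54.1 and 66.8 TPM in Control libraries, 56.2, 26.4 and 34.3 in GC libraries and 146, 166 and 134 in GC+GW9662 libraries, so that the 3 GC+GW9662 libraries were highest and GC replicates 2 and 3 lowest. The difference from GC was 1.97 (SE 0.25, limma adjusted p = 0.00032). Rpl22 itself rose by 1.42 (SE 0.18, limma adjusted p = 0.00035). Rpl15, a core protein of the large subunit, measured 50.04 and 52.95 TPM in Control libraries, 30.7, 21.1 and 22.6 in GC libraries and 92.5, 86.8 and 91.5 in GC+GW9662 libraries. Its 3 groups did not overlap in any pair, with GC lowest, and GC+GW9662 exceeded GC by 1.84 (SE 0.15, limma adjusted p = 2.6e-05). Rps27l, a paralog known as a p53 target, measured 538 and 683 TPM in Control libraries, 596, 339 and 415 in GC libraries and 1358, 1726 and 1507 in GC+GW9662 libraries and rose by 1.80 (SE 0.21, limma adjusted p = 0.00019). Rps14 rose by 1.56 (SE 0.27, limma adjusted p = 0.0014) and Rpl34 by 1.51 (SE 0.22, limma adjusted p = 0.00065).

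Rpl28, Rps29, Rpl36a and Rpl4 were the 4 members that fell in this comparison. Rpl28, a large subunit protein found in eukaryotes and lacking in bacteria, measured 9.64 and 9.15 TPM in Control libraries, 28.3, 46.5 and 43.2 in GC libraries and 9.896, 6.12 and 8.58 in GC+GW9662 libraries, from 74 to 623 reads. Its GC libraries lay apart above both other groups, which overlapped, and GC+GW9662 differed from GC by -2.12 (SE 0.23, limma adjusted p = 0.00014). Rpl36a, near the exit site of tRNA, measured 6.39 and 5.63 TPM in Control libraries, 21.7, 14.5 and 17.4 in GC libraries and 10.97, 7.66 and 11.02 in GC+GW9662 libraries and differed by -0.79 (SE 0.20, limma adjusted p = 0.011), with the call lost under quantile normalization (-0.48, adjusted p = 0.13) and on recovered reads (-0.58, adjusted p = 0.090). Rps29 measured 0.409 and 0.763 TPM in Control libraries, 6.73, 2.51 and 5.77 in GC libraries and 2.31, 0.993 and 1.96 in GC+GW9662 libraries and differed by -1.08 (SE 0.34, limma adjusted p = 0.024). That call was lost without GC replicate 3 (-0.95, adjusted p = 0.080), without GC+GW9662 replicate 2 (-0.86, adjusted p = 0.081), with no filter (-1.08, adjusted p = 0.056) and on recovered reads (-1.11, adjusted p = 0.13), and Rps29 had 2 to 33 reads per library. Rpl4 differed by -0.46 (SE 0.17, limma adjusted p = 0.041), and 13 of its alternatives ended the call, with adjusted p from 0.0053 to 0.16 over all of them; among single omissions these were either Control replicate (0.062 for each), GC replicate 2 (0.12) or 3 (0.13) and GC+GW9662 replicate 2 (0.12) or 3 (0.062).

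**Figure D4:**
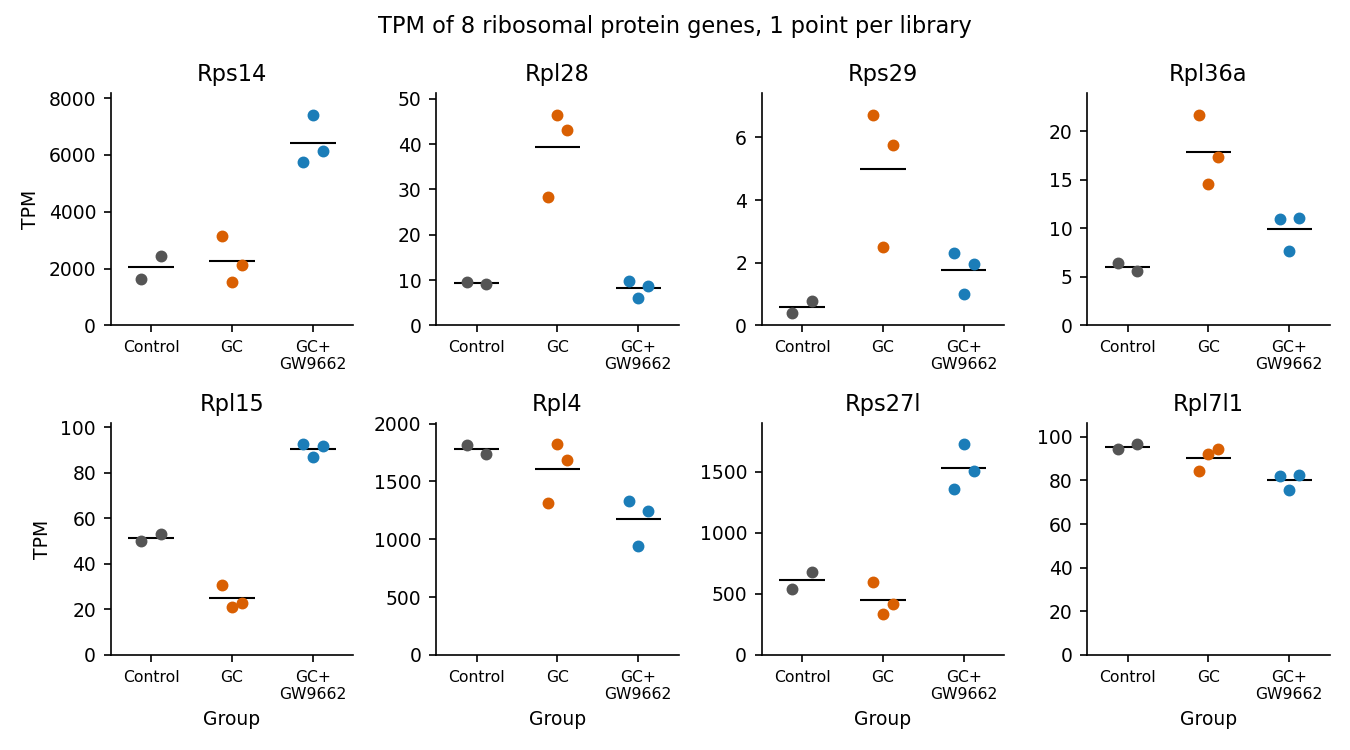
TPM (vertical axes from 0, each with its own range) of 8 ribosomal protein genes by group, with 1 point per library and a line at the group mean. Rps14 and Rps27l are highest in GC+GW9662, Rpl28, Rps29 and Rpl36a in GC, and Rpl15 is lowest in GC, while Rpl4 and Rpl7l1 are lowest on average in GC+GW9662.

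GC against Control compared cultures after DEX with untreated ones, and most members did not pass. Of the 84 genes 15 (17.9%) were higher, 5 were lower and 64 did not pass. Over all genes 16.2% were higher and 39.1% lower, so on the deposited scale the members' share of rises lay near that of all genes. By at least 2-fold 8 members rose, against 9.16% of all genes. The values of 25 members lay above and of 11 below Control with no overlap, against 22.2% and 49.7% of all genes. The median difference was 0.21 in the members and -0.38 over all genes. The members' median moved to 0.76 with median-ratio scaling, to 0.02 without GC replicate 1, to 0.37 without GC replicate 2 and to 0.14 without Control replicate 1. The split moved with the scaling, in the members and over all genes. With median-ratio scaling 39 members were higher and 0 lower, against 27.4% and 26.5% of all genes. Quantile normalization gave 35 and 0, against 27.9% and 26.1%. Rescaling without mitochondrial and the 20 highest genes gave 32 and 2, against 20.3% and 33.4%, and removal of the length trend 34 and 3, against 28.5% and 26.7%. Median-ratio scaling moved the median of all genes by 0.44 in this comparison, by 0.12 in GC+GW9662 against GC and by 0.53 in GC+GW9662 against Control, and the members' median less that of all genes was 0.59 as deposited and 0.70 after it. Single libraries also moved the counts, to 35 higher and 3 lower without GC replicate 2 (all genes 16.4% and 42.7%), to 15 and 11 without GC replicate 1 (20.3% and 42.1%), and to 8 and 2 without Control replicate 1 (11.3% and 26.7%). Without GC replicate 3 the counts were 12 higher and 3 lower (all genes 13.5% and 35.9%). Without Control replicate 2 the members' median was 0.31 and that of all genes -0.37.

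The 5 largest rises in GC were Rpl28, Rps29, Rpl36a, Rpl27 and Rps6. Rpl28 rose by 1.93 (SE 0.26, limma adjusted p = 0.00041), Rps29 by 1.85 (SE 0.38, limma adjusted p = 0.0036) and Rpl36a by 1.41 (SE 0.23, limma adjusted p = 0.0011). Rpl27 measured 16.4 and 25.7 TPM in Control libraries, 71.7, 46.5 and 39.96 in GC libraries and 39.2, 46.9 and 39.9 in GC+GW9662 libraries and rose by 1.27 (SE 0.27, limma adjusted p = 0.0046). Rps6, the substrate of the S6 kinases downstream of mTOR, measured 3.18 and 2.495 TPM in Control libraries, 7.99, 7.83 and 6.72 in GC libraries and 6.61, 5.92 and 7.77 in GC+GW9662 libraries. Its GC and GC+GW9662 libraries overlapped and all lay above Control, and GC exceeded Control by 1.15 (SE 0.20, limma adjusted p = 0.0014). Rps6 was measured from 32 to 107 reads per library and shared 84.6% of its 50-base stretches with other genes. Rplp0 and Rpl12 of the stalk rose by 0.56 (adjusted p = 0.013) and 0.77 (adjusted p = 0.0072). The Rplp0 call was lost without Control replicate 1 (0.51, adjusted p = 0.099) or 2 (0.61, adjusted p = 0.056), and that of Rpl12 without Control replicate 2 (0.66, adjusted p = 0.077). Rplp1 and Rplp2 differed by 0.42 (adjusted p = 0.21) and 0.10 (adjusted p = 0.78).

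The 5 genes called lower in GC were Rpl15, Rpl5, Rpl3, Rpl10a and Rps4l. Rpl15 fell by 1.04 (SE 0.17, limma adjusted p = 0.00098), and the call was lost with median-ratio scaling (-0.49, adjusted p = 0.14) and quantile normalization (-0.68, adjusted p = 0.054). Rpl5 measured 48.00 and 44.1 TPM in Control libraries, 29.8, 23.9 and 29.99 in GC libraries and 53.6, 47.1 and 54.01 in GC+GW9662 libraries and differed by -0.71 (SE 0.14, limma adjusted p = 0.0037); the call was lost with the length trend removed (-0.19, adjusted p = 0.40), with median-ratio scaling (-0.16, adjusted p = 0.54), with quantile normalization (-0.30, adjusted p = 0.25) and on recovered reads (-0.47, adjusted p = 0.056). Rpl3 measured 135 and 126 TPM in Control libraries, 88.7, 84.4 and 93.9 in GC libraries and 184, 135 and 165 in GC+GW9662 libraries and differed by -0.55 (SE 0.14, limma adjusted p = 0.011), with no call without Control replicate 1 (-0.50, adjusted p = 0.085), with the length trend removed (-0.13, adjusted p = 0.42), with quantile normalization (-0.34, adjusted p = 0.068) and on recovered reads (-0.29, adjusted p = 0.14), and with the sign turned by median-ratio scaling (0.01, adjusted p = 0.97). Rpl10a differed by -0.51 (adjusted p = 0.032) and Rps4l, a retrocopy of Rps4x, by -0.46 (adjusted p = 0.038). Over the alternatives the adjusted p of Rpl10a ran from 0.016 to 0.999 and that of Rps4l from 0.0040 to 0.76. The Rpl10a call was lost without Control replicate 1 (0.20) or 2 (0.11) and without GC replicate 2 (0.061) or 3 (0.078). The Rps4l call was lost in the same 4 omissions (adjusted p = 0.097, 0.21, 0.076 and 0.11) and without GC+GW9662 replicate 2 (0.051) or 3 (0.060).

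Paralogs allow a comparison inside each library, because a ratio of 2 genes hardly depends on the library's scaling, apart from the 1 TPM added to each value. In 7 pairs and 3 comparisons, 21 tests in all, the exact two-sided permutation test over libraries gave no p under 0.1, which is the smallest that 2 against 3 or 3 against 3 libraries allow, and no Benjamini-Hochberg adjusted p under 0.23. The values are therefore given as measured. The log2 ratio of Rps27l to Rps27 was 5.62 and 5.64 for Control, 5.01, 4.97 and 4.97 for GC and 5.74, 5.67 and 6.01 for GC+GW9662. GC was lower than both other groups with no overlap, with a difference of -0.65 from Control, and GC+GW9662 exceeded GC by 0.83 (exact permutation p = 0.10 for each). The Rps27 side of this ratio rests on 71 to 242 reads per library, with 98.65% of its 50-base stretches shared with other genes. The log2 ratio of Rpl22l1 to Rpl22 was -2.92 and -2.91 for Control, -3.12, -3.45 and -3.40 for GC and -2.66, -2.76 and -2.92 for GC+GW9662, again lowest in GC. Rpl7l1, which helps to assemble the large subunit and is related to Rpl7, measured 94.3 and 96.6 TPM in Control libraries, 84.4, 92.1 and 94.2 in GC libraries and 82.2, 75.5 and 82.6 in GC+GW9662 libraries. Its log2 ratio to Rpl7 was -2.50 and -2.50 for Control, -3.22, -2.61 and -2.79 for GC and -3.53, -3.68 and -3.54 for GC+GW9662, with GC+GW9662 below Control and no overlap (difference -1.09, exact permutation p = 0.10). The log2 ratio of Rpl36al to Rpl36a was -0.59 and -0.22 for Control, -0.92, -0.40 and -0.85 for GC and -0.15, 0.78 and 0.11 for GC+GW9662. Rpl36a held 52 to 176 reads per library with 85.5% of its 50-base stretches shared, and Rpl36al 53 to 193 with 63.3%. The log2 ratio of Rpl39l to Rpl39 stayed between -3.77 and -3.48 in all 8 libraries. Rpl7l1 itself did not pass in any comparison as deposited (differences -0.08, -0.17 and -0.25), and its sign against Control turned with median-ratio scaling (0.48, adjusted p = 0.013 in GC and 0.47, adjusted p = 0.013 in GC+GW9662) and with the length trend removed (0.38, adjusted p = 0.010 and 0.28, adjusted p = 0.050).

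The calls were also counted by read support. Over all genes, not split by reads or sharing, 14.1% were higher and 48.6% lower in GC+GW9662 against Control. The shares were 28.3% and 33.5% in GC+GW9662 against GC, and 16.2% and 39.1% in GC against Control. Of 44 genes with at least 1000 reads in every library 40 were higher and 1 was lower than Control, with a median of 1.16, and 40 were higher and 1 lower than GC, with a median of 0.86. In GC against Control these 44 gave 2 higher and 1 lower. Of 20 genes with under 100 reads in some library 12 were higher than Control in GC+GW9662, 7 higher and 3 lower than GC, and 8 were higher in GC against Control. By sequence sharing, in GC+GW9662 against Control 9 of 12 genes with under 25% shared stretches were higher, 37 of 44 with 25% to 75%, and 21 of 28 with over 75%. In GC against Control the same classes gave 0 of 12, 6 of 44 and 9 of 28 higher, and 1, 0 and 4 lower. Read support and sharing were not tested as causes.

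Gene length moved with the comparisons over all genes, and the members, being short, were read against it. Genes were put in 10 equal bins by the length that the TPM steps imply. In GC+GW9662 against Control the median of all genes ran from 0.59 in the shortest bin to -1.67 in the longest, while the members' medians ran from 0.80 to 1.36 over the 9 bins that held any. In the second bin, with 40 members, the members' median was 1.04 against 0.50 for all genes. In GC+GW9662 against GC it was 0.64 against 0.41, and in GC against Control 0.23 against 0.09. With the length trend removed 69 members were higher and 2 lower than Control in GC+GW9662, and 50 were higher and 6 lower than GC. Over all genes that setting gave 23.7% higher and 22.8% lower, and 31.8% and 32.1%. The part of length in the result was not tested further.

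**Figure D5:**
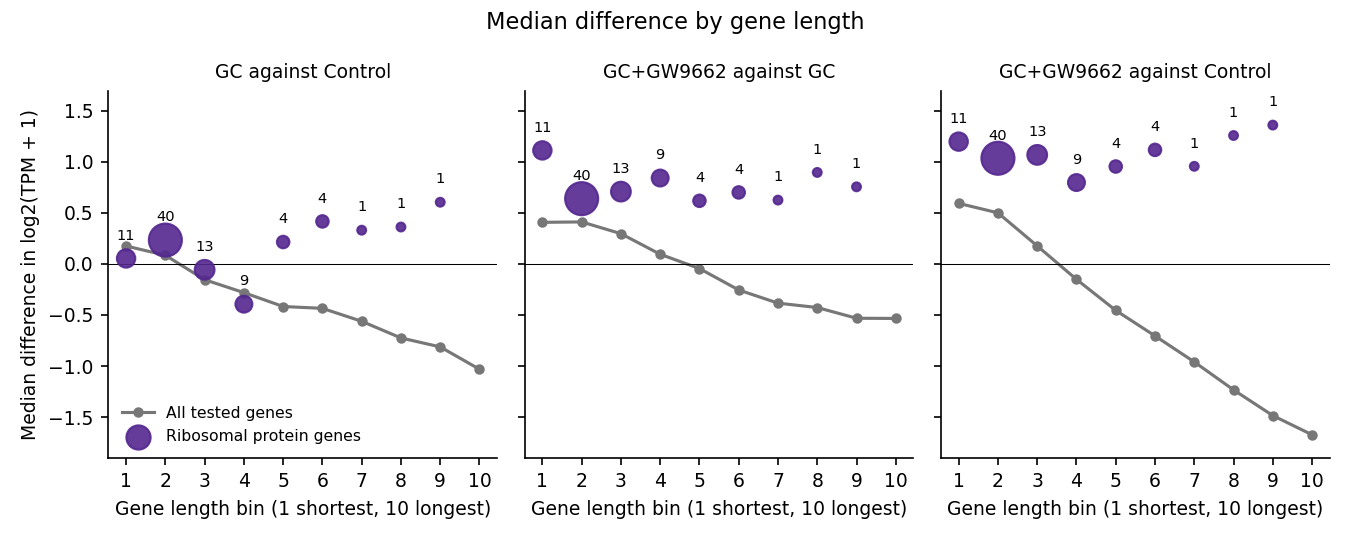
Median difference in log2(TPM + 1) (vertical axis) in 10 bins of gene length (horizontal axis, shortest to longest) for all tested genes (grey line) and the ribosomal protein genes (dots, with their number), in the 3 comparisons. The grey line falls with length in each panel, and the dots lie above it in every bin of the 2 panels with GC+GW9662.

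Other parts of the translation machinery were counted from written lists. Fau, Rack1 and Rps3a1, which encode ribosomal proteins outside the naming rule, were higher than Control in GC+GW9662. Fau averaged 11.3 TPM in Control and 26.8 in GC+GW9662, and Rack1 and Rps3a1 rose by 1.25 and 0.61. Rack1 and Rps3a1 were also higher than GC, by 0.86 and 0.38. Rack1, the scaffold protein of the small subunit head, averaged 862, 1159 and 2056 TPM over the Control, GC and GC+GW9662 libraries. Of 20 other transcripts with a TOP tract, among them the non-coding Gas5, 8 were higher and 7 lower than Control in GC+GW9662 (all genes 14.1% and 48.6%). Against GC 9 were higher and 4 lower (28.3% and 33.5%), and in GC against Control 2 were higher and 5 lower (16.2% and 39.1%). The median of that list in GC+GW9662 against Control was -0.01 as deposited, where that of all genes was -0.49, and 0.72 with median-ratio scaling, where that of all genes was 0.04. Within that list Eef1b2, an elongation factor subunit, differed by 1.22 in GC+GW9662 against Control, whereas Eef2, which moves the ribosome along the mRNA, differed by -1.08.

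Most factors that build ribosomes were lower in GC+GW9662. Of 40 ribosome biogenesis genes 4 were higher and 28 lower than Control in GC+GW9662, with a median of -0.92, and 1 was higher and 22 lower than GC, with a median of -0.75. All genes had 48.6% lower with a median of -0.49 and 33.5% lower with a median of -0.11 in these comparisons. In GC against Control 8 were higher and 7 lower (all genes 16.2% and 39.1%), with a median of -0.11, and of 0.42 with median-ratio scaling, which moved all genes by 0.44. Ncl, the nucleolar protein nucleolin, averaged 131, 150 and 17.7 TPM in the 3 groups, and Nop56, a scaffold of box C/D snoRNPs, 21.9, 63.7 and 7.41. Of 14 chaperones and quality control factors of ribosomal proteins 1 was higher and 10 lower than Control in GC+GW9662, 0 were higher and 11 lower than GC, and 2 were higher and 3 lower in GC against Control. Of 19 regulators 3 were higher and 15 lower than Control, and 1 was higher and 13 lower than GC, and in GC against Control 3 were higher and 6 lower, with a median of -0.34, and of 0.20 with median-ratio scaling. Mtor averaged 15.6, 8.998 and 4.58 TPM, and Myc, a transcription factor that drives ribosome production, 43.1, 9.53 and 9.56. The median exon length was 4110 bases in the biogenesis list, 3850 in the chaperone list and 6418 in the regulator list, against 1736 in the members. With the length trend removed the lower counts in GC+GW9662 against Control became 17 of 40, 9 of 14 and 6 of 19, and the higher counts 11, 3 and 3, beside 22.8% lower and 23.7% higher over all genes. No list was tested against the members.

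Outside the group, the genes whose pattern over the 8 libraries was most like the members' mean were Atp6v1f (Pearson r 0.9987), Gm10443 (0.998), Btf3 (0.9977), Rack1 (0.9973) and Eef1b2 (0.9968), out of 6389 genes with at least 5 TPM in every library. Gm10443 is a processed pseudogene that holds 72.5% of the 50-base stretches of the member Rps28, and the part of shared reads in this likeness was not tested. These correlations describe 3 groups of libraries and carry no test.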

How the data were processed

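The authors deposited a TPM value per gene for 8 libraries. Per the labels' protocols the libraries were made with Smart-Seq2, and per the submitters' processing notes they used HISAT2 2.1.0, featureCounts and fastp; build, annotation and the treatment of multiply matching reads are not given in the sources used here. Gene starts and ends matched GENCODE M21 (97.4% of rows), and 27 symbols turned into dates were restored. TPM times annotated gene length gave whole reads in every library (tolerance 0.002) for 11536 of 26777 genes. The shortest length that gave whole reads was then solved for 26498 genes, all 84 tested members among them, and for 314 none was found, so read numbers are estimates. Genes with at least 1 TPM in 2 libraries were compared as log2(TPM + 1) in limma 3.58.1 (R 4.3.3, tables read with data.table, release 1.17.8), with group means over all 8 libraries, an expression-dependent prior, two-sided p-values and a Benjamini-Hochberg threshold of 0.05; this scale understates changes of low genes. The fit was tested on simulated data. Sequence sharing was counted over GENCODE M21 transcripts in Python 3.11.15 (numpy 2.4.6, pandas 2.3.3, matplotlib 3.10.9). The members and lists were chosen with earlier results of these data known. Named genes were the 5 highest and 5 lowest in level, the 5 largest passing rises and falls per comparison with at least 5 TPM in a group and no overlap, the stalk, 5S, paralog and ubiquitin fusion genes and Rps6; the start windows and the list examples were chosen after values were seen. Results for some genes are not reported here. The fit has no replicate block, and a check of same-numbered GC and GC+GW9662 libraries cannot exclude that they are paired.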

Additional observations from a re-analysis of the deposited data

How the results depend on the processing

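Most calls on single genes held over 2559 alternative fits of the 39 named genes in 3 comparisons. Of these fits 2371 kept the side of the threshold, 117 lost the call, 62 gained one and 9 turned sign with a call before or after. Estimates without a call before and after were not counted as turned, and some changed sign. Rpl11 in GC against Control, for instance, ran from -0.213 to 0.557 over its alternatives. The 9 values counted as turned were, with median-ratio scaling, 0.011 for Rpl3, 0.10 for Rps4l and 0.48 for Rpl7l1 in GC against Control, and 0.12 for Rpl4 and 0.47 for Rpl7l1 in GC+GW9662 against Control. With quantile normalization they were 0.22 for Rpl10a in GC against Control and 0.77 for Rpl28 in GC+GW9662 against Control, and with the length trend removed 0.38 and 0.28 for Rpl7l1 in these comparisons. Counts in GC against Control (15 higher, 5 lower) became 39 and 0 with median-ratio scaling, 35 and 0 with quantile normalization, 34 and 3 with the length trend removed, 32 and 2 without mitochondrial and the 20 highest genes, 24 and 1 on recovered reads, 11 and 3 in the compared groups alone, and ran from 8 to 35 and from 2 to 11 over single omissions. Lower counts against Control in GC+GW9662 (1) became 2 in the compared groups alone and with the length trend removed, 0 with median-ratio scaling and on recovered reads, and 0 to 2 over single omissions. Against GC (4) they became 2 with no filter, 1 on recovered reads, and 2 to 5 over single omissions. Counts of higher genes in the 2 comparisons with GC+GW9662 stayed within 1.5 times. The cause of these shifts was not tested. The fit on recovered reads, chosen after seeing the data, called 66 higher and 1 lower against GC and 76 and 0 against Control. Over all genes it gave 33.4% higher and 28.7% lower against GC, and 24.4% and 36.1% against Control. In GC against Control all genes had 20.6% and 33.9% in that fit, and 14.5% and 34.6% in the compared groups alone. Without mitochondrial and the 20 highest other genes the members' share was 4.89% for Control, 6.59% for GC and 11.5% for GC+GW9662. The log2 ratio of Rpl39l to Rpl39 (0.08 in GC against Control, -0.11 in GC+GW9662 against Control) ran from -0.034 (without Control replicate 1) to 0.196 and from -0.222 to 0.009 (without Control replicate 2) over single omissions. Libraries of GC and GC+GW9662 with the same number had deviations that correlated at -0.10, -0.12 and 0.08 over all genes, and at -0.555, -0.446 and 0.106 over the members. Deviations of 3 libraries from their own mean add up to 0, and Control was not checked, so this cannot exclude pairing. Replicate blocks were counted in the order of GC against Control, GC+GW9662 against GC and GC+GW9662 against Control. A block by title number gave 11 higher and 3 lower members, 53 and 3, and 62 and 1. Over all genes it gave 13.34% higher and 34.34% lower, 25.69% and 30.04%, and 11.88% and 43.96%. A block by the bracketed number gave 14 and 3 members, 55 and 3, and 68 and 0. Over all genes that block gave 13.82% and 35.09%, 25.87% and 30.5%, and 12.09% and 43.73%. Depth limits genes such as Rps29, Rpl23a and Rps12l1, with 0 to 33 reads per library.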

Other observations

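The proteins of the mitochondrial ribosome, which translates the few mRNAs made inside mitochondria, are encoded by a separate set of nuclear genes (Mrpl and Mrps names), chosen here after values had been seen. Of 76 such genes tested, 44 were higher and 5 lower in GC+GW9662 than in Control, with a median difference of 0.54, beside 14.1% higher and 48.6% lower over all genes. Against GC 31 were higher and 11 lower, with a median of 0.32, beside 28.3% and 33.5%. In GC against Control 18 were higher and 8 lower, with a median of 0.09, beside 16.2% and 39.1%. The median in GC against Control was 0.63 with median-ratio scaling. The cytosolic members had medians of 1.04, 0.73 and 0.21 in these comparisons as deposited, and the difference between both sets was not tested.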
